A study of Rattus norvegicus with 5 samples.

Results

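Small intestines of male Wistar rats under stronger food restriction were set against those under milder restriction. The stronger arm consisted of the 20% and 30% CR (caloric restriction) pools and the milder arm of the 5% and 10% CR pools. The series holds 5 pools of RNA, each from 5 rats and each hybridized to 1 Affymetrix Rat 230A array. The control pool, of rats without restriction, was left out of the comparison, so 4 of the 5 arrays were compared, 2 in each arm. All of these rats were bought at 5 weeks of age and started the diets at 6 weeks, received a purified AIN-93G powder for 1 month, with 5, 10, 20 or 30% less of it than the recorded intake, and were fasted for 16 h before dissection. An arm therefore joins 2 different restriction levels, and its 2 arrays are not replicates of 1 condition. Differences between single rats cannot be seen in pools, and with a whole gut segment, fewer cells of a type cannot be told apart from less RNA per cell.

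Of 15866 gene probes (the array's probe sets without its controls), 7924 had a signal of at least 50 on 2 or more of the 4 arrays and were compared. These carry the names of 6204 distinct genes. A signal is the brightness of a gene probe on a linear scale, brought by the authors to the same trimmed mean on every array. Of the compared gene probes, 7043 reached 50 on all 4 arrays, 492 on 3 and 389 on 2. There were 53 that were kept only through the 20% and 30% CR arrays and 66 only through the 5% and 10% CR arrays, and such gene probes had to differ between the arms. At the edge of this filter, the last gene probe kept had a second-highest signal of 50 and the first left out had 49.9.

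The small intestine digests and absorbs food through enterocytes, whose brush border carries peptidases, disaccharidases and nutrient transporters. The same cells make cholesterol and lipoproteins, and they modify drugs and food toxins with cytochromes P450 and conjugating enzymes. Stem cells in the crypts renew the epithelium within days, goblet and Paneth cells secrete mucus and antimicrobial proteins, and fibroblasts, immune cells, nerves and smooth muscle lie beneath. CR lowers the supply of food to this tissue, and it is known to act on circadian, glucocorticoid and lipid pathways in rodents.

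Markers of small intestinal epithelium were bright on all 4 arrays. The enterocyte cadherin *Cdh17* had signals of 2268.7, 2247.2, 2874.9 and 2344.7 at 5, 10, 20 and 30% CR, and the ileal bile acid transporter *Slc10a2* had 21.9, 5.5, 10.9 and 15.5. Of 15 genes listed for the distal small intestine and colon 7 were kept, among them *Slc26a3* with 231.7, 163.7, 191.2 and 321.2. Of 19 genes listed for the exocrine pancreas 2 were kept, *Cela1* and *Zg16*, and the protease *Ctrb1* had 15.5, 0.7, 1.4 and 0.8. One array stood apart in the actin measure of RNA quality. At 20% CR, actin gave 3.18 times as much signal at its 3' as at its 5' end. The other CR arrays had 2.20 to 2.41. The same ratio of *Gapdh* did not set that array apart, with 1.32, 1.37, 1.27 and 1.21 at 5, 10, 20 and 30% CR. The part of the higher actin ratio in the results below was not tested. Values without the 20% CR pool are given for several of them.

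No gene probe differed between the arms past the adjusted threshold when all of them were tested. The arrays did not pair by arm: the most alike were those at 5 and 30% CR, with a standard deviation of the log2 differences of 0.23 and 22 gene probes that differed by at least 1 (log2). Least alike were the arrays at 20 and 30% CR, both of the stronger arm, with 0.38 and 139 gene probes, of which 106 were higher at 30% CR. Within the milder arm the values were 0.28 and 31 gene probes. The median size of the difference between the arm means was 0.114 (log2), that between the 10% and 5% CR arrays 0.163 and that between the 30% and 20% CR arrays 0.227. In limma, with 2 arrays against 2, 0 gene probes passed an adjusted p of 0.05 upward and 0 downward, which is 0.0% of those tested in each direction. The smallest adjusted p = 0.9998 was shared by every gene probe named below, and 65 gene probes (0.82%) had an unadjusted p below 0.05 upward and 90 (1.14%) downward, 155 where 5% of the tested gene probes would be 396. Leaving out the 30% CR pool gave 4 calls upward (*Apoc3*, *Cyp3a9*, *Ms4a8* and *Krt20*) and 2 downward (*Mcl1* and *Gpatch1*), and leaving out any other pool gave 0. That fit sets the single 20% CR array, the one with the higher actin ratio, against 2 arrays. Its residual spread comes from the 5% and 10% CR pair alone, and the fit assumes that the lone array varies like them.

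**Figure D1:**
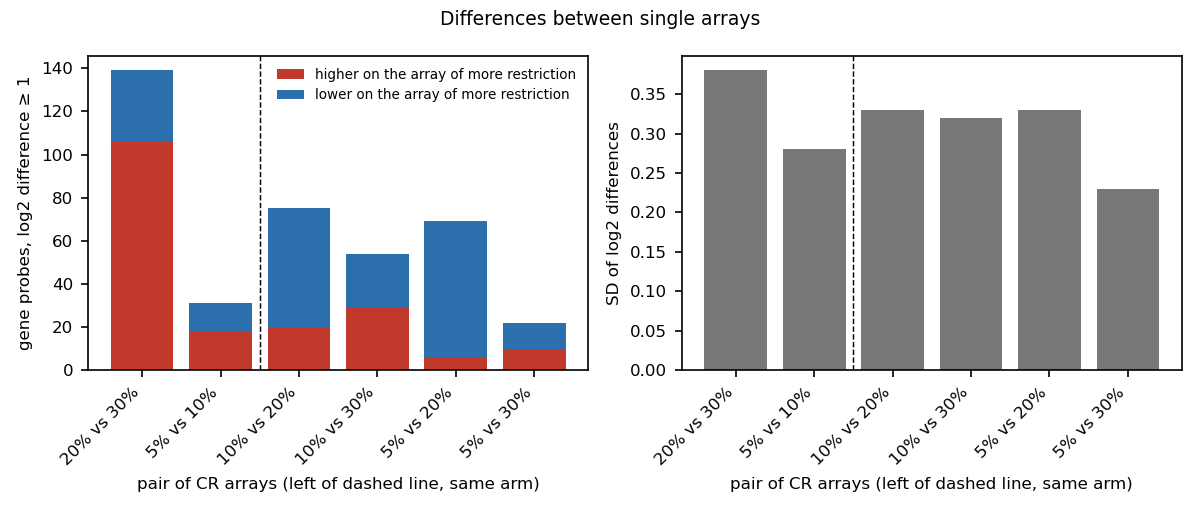
Differences between each pair of the 4 CR arrays over 7924 gene probes. Left, number of gene probes with a log2 difference of at least 1, red where the array of more restriction was higher and blue where it was lower; right, standard deviation of the log2 differences. The pair of the stronger arm, 20 against 30%, has the most such gene probes (139) and the pair 5 against 30%, from different arms, the fewest (22).

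In the absence of calls, the differences were described by 2 other counts, neither of which is a test. The arms of a gene probe did not overlap where both arrays of one arm lay above both of the other, which held for 920 gene probes that were higher at 20 and 30% CR (11.6% of those tested) and 1268 that were lower (16.0%). Among these, 38 were higher (0.48%) and 93 lower (1.17%) by at least 0.5 in the difference of mean log2 signal, and 6 lower and 0 higher by at least 1. The split between higher and lower depended on the scaling: 29.0% of the gene probes past 0.5 were higher as deposited, 48.4% after quantile normalization and 51.5% after median centring. Of the gene probes whose arms did not overlap, 42.0% were higher, and 49.6% and 59.1% after these scalings. The count also depended on single pools, at 195 upward and 540 downward when the 30% CR pool was left out, 177 and 168 when the 20% CR pool was, 192 and 309 for the 5% CR pool and 85 and 138 for the 10% CR pool.

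Bright gene probes leaned to higher signals in the stronger arm. The 583 gene probes whose mean log2 signal reached 10 had a median difference of 0.074, and 77.7% of them were positive, against 45.1% of all gene probes. Their median distance from the mean of the 4 arrays was −0.062, −0.015, 0.104 and −0.034 at 5, 10, 20 and 30% CR, which is high on the 20% CR array alone. After quantile normalization the median difference of the same gene probes was −0.004. For several lists with bright genes, values after quantile normalization are given beside the others.

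**Figure D2:**
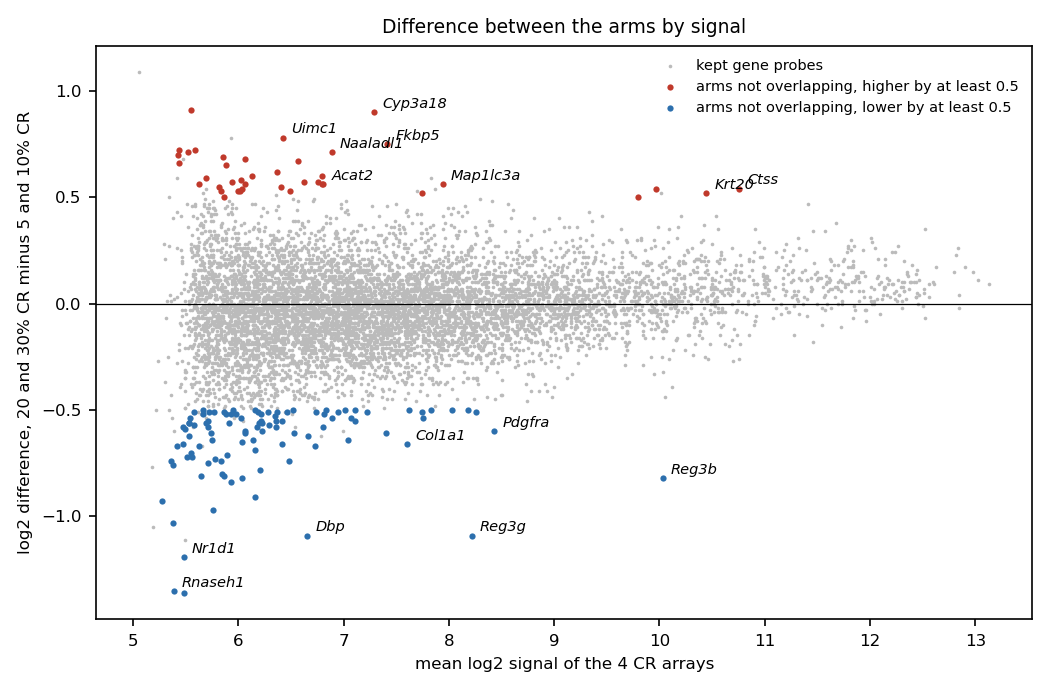
Difference between the arm means (log2, 20 and 30% CR minus 5 and 10% CR) against the mean log2 signal of the 4 arrays for 7924 gene probes. Red and blue mark the 38 higher and 93 lower gene probes whose arms did not overlap and that differed by at least 0.5. Most of them are dim, and the cloud bends above 0 at bright signals.

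Of the named genes, the highest difference at a gene probe above 50 on all 4 arrays was that of *Cyp3a18*, a cytochrome P450 that oxidizes drugs and steroids. Its signals were 131.0, 100.2, 204.3 and 223.7 at 5, 10, 20 and 30% CR. Both arrays of the stronger arm lay well above both of the milder arm, by 0.90 ± 0.19 (difference of mean log2 signal ± standard error, 2 arrays against 2, 1.87-fold). Its unadjusted p of 0.00119 in limma was the smallest of all gene probes, and it did not pass after adjustment (limma, adjusted p = 0.9998). The stress chaperone *Fkbp5*, which glucocorticoids induce, had 93.9, 183.0, 189.1 and 257.8 and a difference of 0.75 ± 0.30. Its 10% and 20% CR arrays were nearly equal, and the 5% CR array was the low one. *Naaladl1*, a peptidase of the brush border, had 89.5, 95.4, 174.9 and 130.6 and a difference of 0.71 ± 0.20.

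Other genes chosen by size or by p were spread over several functions. *Ctss*, the protease cathepsin S, was bright, with 1400.9, 1475.1, 2435.3 and 1805.7 and a difference of 0.54 ± 0.16. *Map1lc3a*, a protein of the autophagosome membrane, had 183.5, 223.4, 304.8 and 291.1 and 0.56 ± 0.16. In both, the arms were apart by more than the spread of the milder arm, while the 20 and 30% CR arrays were close in *Map1lc3a* alone. *Angptl4*, an inhibitor of lipoprotein lipase that fasting induces, had 100.7, 77.6, 116.8 and 148.1 (0.57 ± 0.22), and *Blvra*, which reduces biliverdin, had 103.2, 78.4, 124.1 and 149.1 (0.60 ± 0.21). The 10% CR array was the lowest in both. *Cdkn2b*, an inhibitor of the cell cycle, had 51.8, 53.9, 86.0 and 83.4 with the control array at 116.5, so the stronger arm lay nearer to the unrestricted pool.

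*Uimc1*, a ubiquitin-binding protein of the DNA damage response, had a difference of 0.78 ± 0.24. The 20% CR array decided 2 of the higher genes: the trehalose-splitting *Treh* had 85.9, 76.2, 158.9 and 90.8, and the membrane protein *Tmc6* had 87.9, 64.0, 143.7 and 99.7. *Clic5*, a chloride channel protein tied to the microvillus cytoskeleton, had 93.3, 89.5, 139.2 and 131.2 and was nearly equal within each arm, with 0.56 ± 0.18. A few dim genes were above 50 on both arrays of the stronger arm and below it on both of the milder arm: the esterase *Bche* (0.91), the secreted signal *Wnt5b* (0.72), the nuclear matrix protein *Safb* (0.72), the lysosomal peptide transporter *Abcb9* (0.71) and the glucuronosyltransferase *Ugt2b35* (0.70). These were kept through the arm in which they were high.

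Among gene probes at 50 or more on all 4 arrays, the lowest differences were those of 2 related antimicrobial lectins of the epithelium. *Reg3g* had signals of 262.8, 716.6, 219.3 and 190.1 at 5, 10, 20 and 30% CR and a difference of −1.09 ± 0.38, and *Reg3b* had 939.0, 2064.4, 828.0 and 747.2 and −0.82 ± 0.31. In both genes the 10% CR array was more than 2-fold above every other array and the 5% CR array only slightly above the stronger arm, so the 10% CR pool set the difference. *Cd68*, a lysosomal protein of macrophages, had the same shape, with 126.7, 214.1, 94.4 and 118.7 (−0.64 ± 0.26).

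*Col1a1*, which encodes a chain of the main fibrillar collagen, had 225.1, 263.9, 151.5 and 156.6, with the arms apart and each arm's arrays close together, and a difference of −0.66 ± 0.16. Its other gene probe did not show this: it had 93.0, 110.2, 94.0 and 95.0 and a difference of −0.10. *Gosr2*, which guides vesicle fusion in the Golgi, had 210.0, 207.1, 129.8 and 144.8 (−0.61 ± 0.16), and its other gene probe 274.5, 258.0, 196.2 and 216.4 (−0.37). Both gene probes of *Gosr2* were thus lower without overlap. The others above 50 on all arrays were *Clasp1*, which stabilizes microtubules (−0.69), *Sv2b*, a synaptic vesicle protein (−0.67), *Tmtc3*, of the endoplasmic reticulum (−0.66), the actin-binding *Ppp1r9b* (−0.64), the mitochondrial *Rtn4ip1* (−0.62), the DNA repair enzyme *Nthl1* (−0.61) and *Med20*, a Mediator subunit (−0.60).

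Dim genes gave the largest negative differences. *Rnaseh1*, which removes RNA from RNA-DNA hybrids, had signals of 61.5, 72.6, 19.1 and 36.0 and a difference of −1.35 ± 0.36, and the clock repressor *Nr1d1* had 66.3, 68.3, 37.1 and 23.6. *Abcc5*, an efflux pump, had 57.8, 61.0, 19.3 and 44.1 (−1.03 ± 0.40). All 3 were above 50 only in the milder arm, as were *Dnajc27* (−0.93), a J-domain protein, and *Xxylt1* (−0.81), a xylosyltransferase. Their ratios of weak signals vary widely in values of this kind.

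**Figure D3:**
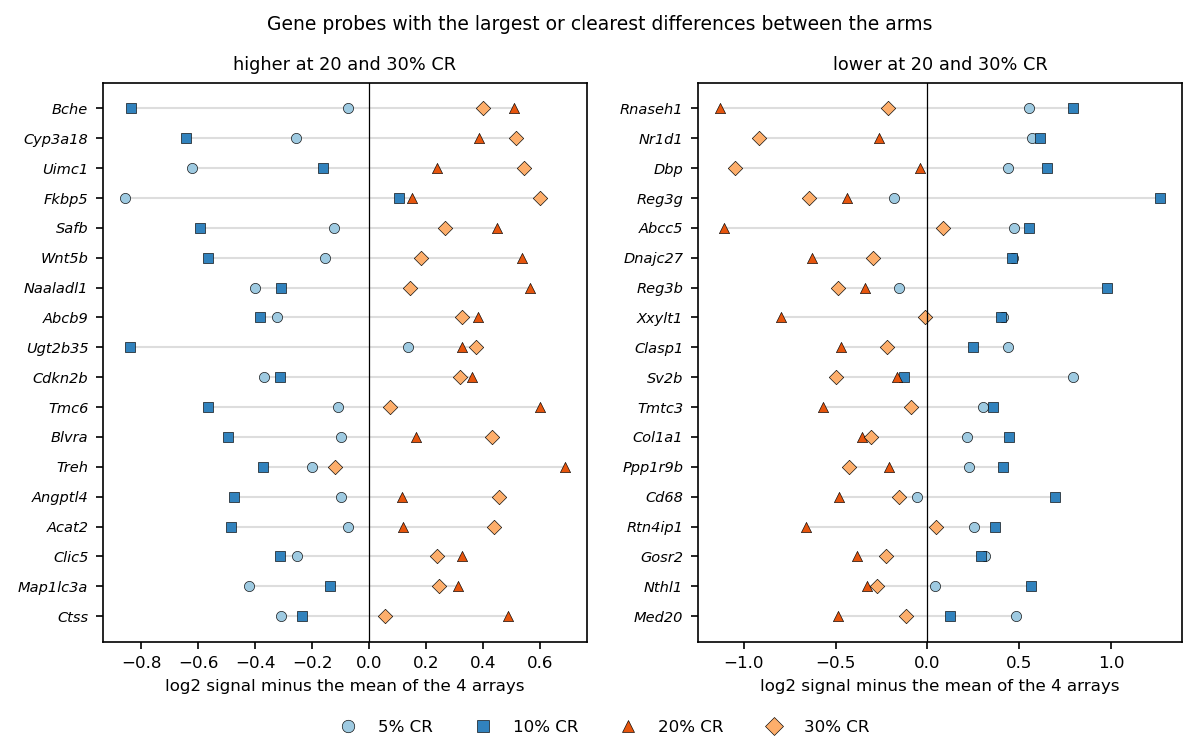
Log2 signal minus the mean of the 4 arrays for gene probes chosen by size, by the 50 limit or by smallest p, on the 5% (circles), 10% (squares), 20% (triangles) and 30% CR (diamonds) arrays. Left, higher in the stronger arm; right, lower. The arms do not overlap by the rule of choice, and in *Reg3g* and *Reg3b* the 10% CR array lies far from the other three.

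Genes of cholesterol synthesis were a little higher in the stronger arm, all of them in the same direction. Of 19 genes of this list on the array 18 were kept, and all 18 had a positive difference, where 44.7% of all genes were positive. The arms did not overlap in 8 of the 18, all higher, where 11.6% of all genes were higher and 16.3% lower without overlap. Its median difference was 0.15 against −0.02 over all genes, 0.18 after quantile normalization and 0.20 after median centring. The median distance from the mean of the 4 arrays was −0.02, −0.18, 0.12 and 0.08 at 5, 10, 20 and 30% CR, and without each pool in turn the median stayed between 0.10 and 0.30. No member passed limma (0 higher and 0 lower), and the control array, with a median of 0.04, lay between the arms.

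Along the pathway, *Acat2*, the thiolase that joins the first acetyl-CoA units, had signals of 106.3, 79.9, 121.3 and 151.4 and a difference of 0.56 ± 0.22. *Msmo1*, which removes methyl groups from sterols, had 384.3, 340.9, 447.7 and 466.4 (0.34 ± 0.14), and *Tm7sf2*, a sterol reductase, had 174.4, 158.9, 225.4 and 187.3 (0.30 ± 0.17). In these 3 enzymes the 10% CR array was the lowest. The lanosterol demethylase *Cyp51*, which the study names, had 545.3, 463.4, 621.7 and 607.4 (0.29 ± 0.14) at one gene probe and 157.8, 136.6, 217.4 and 153.7 (0.32) at another, where the arms overlapped. *Insig1*, which sterols use to hold back the transcription factor that switches the pathway on, had 245.6, 194.6, 312.7 and 259.3 (0.38 ± 0.18). *Srebf2*, which encodes that factor and is named here after its values were seen, had 184.8, 173.1, 211.2 and 210.3, nearly equal within each arm (0.24 ± 0.15).

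The bases before the start of 4 of these genes are shown because their signals lay on the same side and because sterol-regulated promoters are known to carry a CCAAT box, the site of factor NF-Y. RefSeq promoters of 15 of the 18 kept genes were at hand, and CCAAT was found on either strand within 250 bases before the start in 12 of them, against 34.0% of all 33469 promoters of the same length. A match of 5 letters is a description and not a bound site. TCACNCCAC, a form of the sterol response element, was in 0 of the 15 and in 0.974% of all promoters. The sequences are the 200 bases before the start of each gene, 5′ to 3′ along the gene (RefSeq, build GRCr8), with CCAAT, or ATTGG where it lies on the other strand, in capitals. They lie at chr16:29746913-29747112 (plus strand), chr4:8057770-8057969 (minus), chr1:212789542-212789741 (minus) and chr7:115543107-115543306 (plus), in the order printed.
Msmo1: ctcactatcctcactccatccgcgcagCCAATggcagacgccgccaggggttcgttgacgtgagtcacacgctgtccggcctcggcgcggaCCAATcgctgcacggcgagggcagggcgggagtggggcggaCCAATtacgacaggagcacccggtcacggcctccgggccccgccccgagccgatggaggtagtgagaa
Insig1: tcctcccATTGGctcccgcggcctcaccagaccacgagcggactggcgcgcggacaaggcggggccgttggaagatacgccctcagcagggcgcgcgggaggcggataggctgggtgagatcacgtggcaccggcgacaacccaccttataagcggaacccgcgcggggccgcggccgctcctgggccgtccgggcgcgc
Tm7sf2: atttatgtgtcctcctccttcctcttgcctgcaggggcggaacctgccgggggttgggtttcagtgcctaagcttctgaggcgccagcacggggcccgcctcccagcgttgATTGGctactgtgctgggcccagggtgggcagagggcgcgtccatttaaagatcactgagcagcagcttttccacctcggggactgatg
Srebf2: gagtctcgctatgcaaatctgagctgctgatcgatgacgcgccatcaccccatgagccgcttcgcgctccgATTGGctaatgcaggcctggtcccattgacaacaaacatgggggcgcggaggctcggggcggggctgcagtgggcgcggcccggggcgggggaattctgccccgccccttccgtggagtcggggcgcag

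Collagens and other genes of the extracellular matrix were lower in the stronger arm. Of 39 on the array 32 were kept, and 31 had a negative and 1 a positive difference. The arms did not overlap in 12, all lower (37.5%, against 16.3% of all genes). The median was −0.21. It was −0.19 after quantile normalization, −0.17 after median centring, and between −0.36 and −0.16 without each pool in turn. By array, the median distance from the mean was 0.02, 0.23, −0.18 and −0.11 at 5, 10, 20 and 30% CR, so the 10% CR array stood highest. The summed signal of the list was 9722, 11648, 8739 and 9491, and the 5% CR array lay close to that at 30% CR by this sum.

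Beside *Col1a1*, its partner chain *Col1a2* had signals of 228.8, 318.5, 211.7 and 173.2 (−0.50 ± 0.20), and its other gene probe 224.4, 258.8, 180.8 and 224.5 (−0.26), where the arms overlapped narrowly. *Col4a2*, of the basement membrane, had 159.1, 175.2, 116.4 and 112.2, with each arm close together (−0.55 ± 0.17). *Pdgfra*, the growth factor receptor of fibroblasts, had 394.4, 455.2, 243.3 and 322.7 (−0.60 ± 0.18). At the other gene probes of both fibrillar chains the arms overlapped, so these chains were lower without overlap only at the brighter gene probe of *Col1a1* and the gene probe of *Col1a2* given first.

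**Figure D4:**
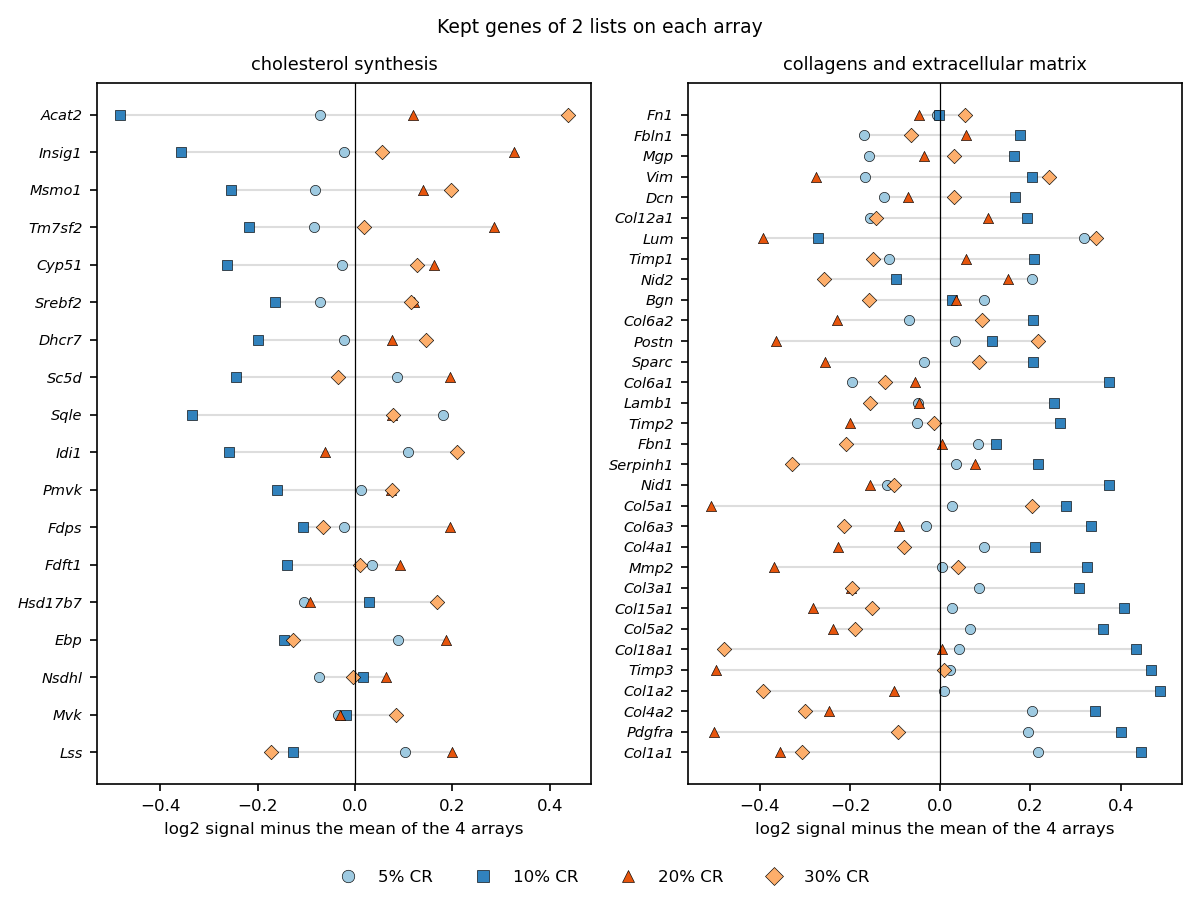
Log2 signal minus the mean of the 4 arrays for the 18 kept genes of cholesterol synthesis (left) and the 32 of the extracellular matrix (right), 1 gene probe per gene, sorted by the difference between the arms. Symbols mark the 5, 10, 20 and 30% CR arrays. In both lists the 10% CR array (squares) is mostly the farthest from 0, low on the left and high on the right.

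Other tissues beneath the epithelium leaned the same way as the matrix, in smooth muscle with a large share from the 10% CR array. In smooth muscle, 21 of 22 genes were kept, 19 had a negative difference and the median was −0.18. Lower without overlap were 5 (23.8%, against 16.3% of all genes). The 10% CR array stood at 0.29 from the mean and the others between −0.17 and −0.06, and without the 10% CR pool the median was −0.009. *Des*, the intermediate filament of muscle, had signals of 971.0, 1559.6, 897.4 and 922.0 (−0.44 ± 0.21), and *Cnn2*, a calponin that binds actin, had 295.2, 362.3, 230.9 and 283.2 (−0.35 ± 0.17). In *Des* the 5% and 10% CR arrays differed by more than the arms did. Only 6 of 23 genes of enteric neurons and glia were bright enough, all 6 with a negative difference and 3 lower without overlap. Of these, the neuronal filament *Prph* had 60.6, 74.4, 55.1 and 44.5 (−0.44 ± 0.25) and the relaxing neuropeptide *Vip* 99.3, 110.9, 85.4 and 86.4 (−0.29 ± 0.19).

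Most genes of the macrophage and lymphocyte lists had negative differences, though not the brightest T cell gene. Of 14 kept genes of macrophages and mast cells (23 on the array), 12 were negative. Lower without overlap were 5 (35.7%, against 16.3% of all genes), and 0 were higher. The median of −0.16 was −0.062 without the 10% CR pool. The mast cell protease *Cpa3* had signals of 199.6, 253.9, 160.2 and 168.9 (−0.45 ± 0.18), and *C1qb*, a complement subunit made by macrophages, had 422.7, 445.5, 365.5 and 402.3 (−0.18 ± 0.14). Of 10 kept genes of lymphocytes and plasma cells (21 on the array), 8 were negative and 4 lower without overlap (40.0%). The median was −0.26, with −0.15 without the 20% CR pool. *Lck*, a kinase of T cells, had 159.3, 162.1, 127.6 and 139.0 (−0.27 ± 0.17), and the T cell receptor subunit *Cd3d* had 54.6, 77.6, 38.6 and 53.8 (−0.51 ± 0.29), with the 5 and 30% CR arrays nearly equal. Another subunit of that receptor, *Cd3g*, the brightest of the list and named after its values were seen, had 1142.1, 1104.5, 1277.1 and 1092.9 (0.07 ± 0.14). The arms overlapped there and in the chemokine *Ccl5* (0.18 ± 0.27), the other positive member.

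Antigen presentation and interferon genes went both ways, with 15 positive and 12 negative of 27 kept and a median of 0.01. The arms did not overlap in 4 higher and 4 lower (14.8% each, near the 11.6% and 16.3% of all genes). *RT1-Bb*, a chain of rat MHC class II, had signals of 2599.8, 2070.9, 3198.5 and 3244.0, the stronger arm being the tighter one (0.47 ± 0.14). *RT1-CE5*, a class I gene, differed by −0.76 ± 0.34 and was kept only through the milder arm, as was *Irf9* (−0.35), also among the 4 lower. MHC genes are near-identical in part, so their gene probes may share signal. *Tap2*, which pumps peptides toward class I molecules, had 92.2, 111.3, 112.4 and 126.7 (0.24 ± 0.19), with the 10 and 20% CR arrays nearly equal.

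Secretory cells showed little outside the *Reg3* genes. The Paneth cell defensin *Defa5* was at 1.4 to 2.2 on these arrays and was not kept. Another defensin, *Defa24*, named after its values were seen, was bright. It had 1268.7, 1730.4, 1400.0 and 1537.4, with overlapping arms (−0.01 ± 0.17). All 8 kept genes of Paneth cells and antimicrobial proteins (13 on the array) had a negative difference. *Reg3g* and *Reg3b* were the 2 that did not overlap (25.0%, against 16.3% of all genes lower). The median was −0.16, with the 10% CR array at 0.27 and the others between −0.21 and −0.10, and without the 10% CR pool it was −0.064. Of 10 kept mucins and goblet cell proteins 7 were positive, 0 did not overlap, and the median of 0.09 was −0.003 after quantile normalization and −0.035 without the 20% CR pool. The secreted mucin *Muc2* had signals of 2032.2, 1703.4, 2014.9 and 1810.5, which overlap between the arms.

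Drug- and toxin-handling enzymes were higher on balance. Of 29 cytochrome P450 genes and their reductase on the array 11 were kept, 7 positive and 4 negative. Without overlap, 5 were higher and 1 lower (45.45% and 9.09%, against 11.6% and 16.3% of all genes). The median was 0.21. This median stayed between 0.15 and 0.25 without each pool in turn, and it was −0.014 without the signal filter, which adds the dim members. *Cyp3a9*, a relative of *Cyp3a18*, had signals of 768.3, 735.5, 1352.6 and 834.8 (0.50 ± 0.21), high at 20% CR above all, and the difference was 0.15 without the 20% CR pool. *Cyp4f1*, which oxidizes fatty acids and eicosanoids, had 1260.9, 1191.0, 1488.2 and 1530.9 (0.30 ± 0.12), and *Cyp2d4* had 134.7, 114.7, 174.1 and 141.9 (0.34 ± 0.19). In *Cyp4f1* the arrays of each arm were close to one another.

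Among conjugating and detoxifying enzymes, 34 of 42 were kept, 28 positive and 6 negative, with a median of 0.17. The arms did not overlap in 11 higher and 1 lower (32.35% and 2.94%, against 11.6% and 16.3% of all genes). Among the 11 higher, *Ugt2b35* was kept only through the stronger arm. The median was 0.069 without the 10% CR pool and up to 0.20 without the 5% CR pool. *Sult1b1*, which adds sulfate to thyroid hormones and phenols, had signals of 633.9, 582.8, 797.9 and 820.4, with the arms apart (0.41 ± 0.13, 1.33-fold). The acetyltransferase *Nat1* had 62.9, 47.3, 73.4 and 69.7 (0.39 ± 0.24), and *Gstm5*, a glutathione transferase, had 92.3, 101.4, 122.7 and 122.7 (0.34 ± 0.18). Gene families such as *Gst* and *Cyp* have close relatives that a gene probe may not separate.

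Brush border and nutrient genes were higher in the mean of the stronger arm, with the 20% CR array high and, in most of these lists, the 10% CR array low. Of 13 kept brush border peptidases and phosphatases (14 on the array) 11 were positive. Only 1, *Naaladl1*, was higher without overlap (7.69%, against 11.6% of all genes). Their median distance from the mean of the 4 arrays was 0.09, −0.26, 0.48 and −0.26 at 5, 10, 20 and 30% CR, and the median difference of 0.19 was −0.17 without the 20% CR pool and 0.025 without the 10% CR pool. For 11 genes of brush border structure the median difference was 0.16, with 0.124 after quantile normalization and −0.004 without the 20% CR pool. Of these, 10 were positive and 3 higher without overlap (27.3%, against 11.6% of all genes). The 3 were a keratin and fatty acid-binding proteins, given below. In every other member the arms overlapped, such as the microvillar *Espn* (0.42) and *Pls1* (0.36), named after their values were seen. *Krt20*, the keratin of mature enterocytes, had signals of 1158.4, 1159.3, 2049.0 and 1356.3 (0.52 ± 0.19, and 0.23 without the 20% CR pool). *Fabp2* and *Fabp1*, the fatty acid-binding proteins of enterocytes, had 1918.3, 1805.8, 2382.9 and 1969.2 (0.22 ± 0.14) and 5205.2, 5369.0, 6468.2 and 5401.3 (0.16 ± 0.14). In each of these the 30% CR array lay nearer to the milder arm than to the 20% CR array.

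The same held for absorption. Of 8 genes of sugar digestion and fructose use, 5 were positive and 2 higher without overlap (25.0%, against 11.6% of all genes). The median of 0.19 was −0.041 without the 20% and 0.004 without the 10% CR pool. *Khk*, which phosphorylates fructose, had signals of 470.0, 390.8, 501.9 and 526.6 (0.26 ± 0.15) and was highest at 30% CR. Of 10 kept amino acid and peptide transporters 9 were positive, 2 higher and 1 lower without overlap (20.0% and 10.0%, against 11.6% and 16.3%). Their median was 0.16, −0.058 without the 20% and 0.059 without the 10% CR pool. The taurine transporter *Slc6a6* had 397.6, 354.2, 400.1 and 434.2 (0.15 ± 0.14), and the glutamine transporter *Slc1a5* 71.3, 74.4, 48.8 and 61.0 (−0.42 ± 0.24). Of 17 kept genes of fat absorption 12 were positive, 3 higher and 1 lower without overlap (17.65% and 5.88%). The 3 higher include *Fabp1* and *Fabp2*, already counted in the list of brush border structure. The median of the fat absorption genes was 0.10, and 0.064 after quantile normalization. It was −0.043 without the 20% and −0.001 without the 10% CR pool. *Sar1b*, which buds the vesicles that carry chylomicrons, had 753.9, 726.2, 921.2 and 896.9, with the arms clearly apart (0.30 ± 0.13). The acyl-CoA synthetase *Acsl3* had 82.7, 80.8, 64.7 and 62.9 (−0.36 ± 0.21).

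**Figure D5:**
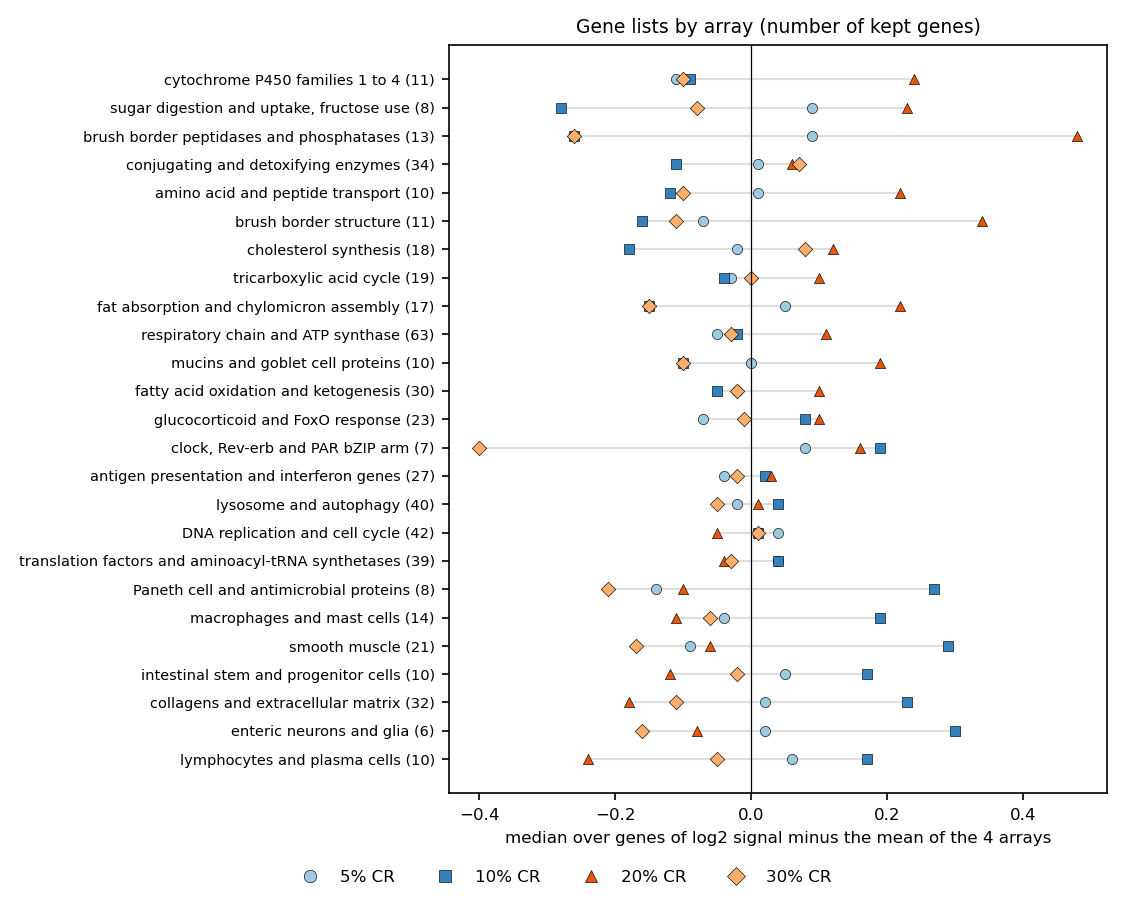
Median over the kept genes of each list of the log2 signal minus the mean of the 4 arrays, on the 5, 10, 20 and 30% CR arrays, with the number of kept genes in brackets. Lists are sorted by the difference between the arms. The 20% CR array (triangles) stands apart in the brush border and nutrient lists, and the 10% CR array (squares) in smooth muscle and the Paneth, nerve and matrix lists.

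Mitochondrial genes shared the lean of bright gene probes. All 63 genes of the respiratory chain and ATP synthase were kept, 53 positive (84.1%) and 10 negative, with a median of 0.09. Of gene probes whose mean log2 signal reached 10, 77.7% were positive. In the list, 13 were higher and 2 lower without overlap (20.6% and 3.2%, against 11.6% and 16.3% of all genes). After quantile normalization the median was 0.015 and without the 20% CR pool 0.011. *Cox7b*, a subunit of cytochrome oxidase, had signals of 3048.9, 3454.2, 4313.5 and 3478.2 (0.26 ± 0.15), where the 10 and 30% CR arrays were nearly equal. All 19 genes of the tricarboxylic acid cycle were kept, 17 positive (89.5%), with 7 higher (36.8%) and 0 lower without overlap. Their median was 0.11, which was 0.021 after quantile normalization and 0.037 without the 20% CR pool. *Idh1*, the cytosolic isocitrate dehydrogenase, had 2205.9, 2054.8, 2725.5 and 2365.9 (0.25 ± 0.13), and *Mdh1*, the cytosolic malate dehydrogenase, 2217.5, 2028.1, 2602.1 and 2342.4 (0.22 ± 0.13). Of 30 kept genes of fatty acid oxidation and ketogenesis (38 on the array) 18 were positive, with 6 higher and 1 lower without overlap (20.0% and 3.33%, against 11.6% and 16.3% of all genes) and a median of 0.04, which was 0.010 without the 20% CR pool and so close to that of all genes. *Echs1*, a hydratase of that pathway, had 348.6, 297.7, 379.3 and 400.5 (0.27 ± 0.15), and *Pex11a*, which divides peroxisomes, 46.6, 42.6, 61.6 and 59.8 (0.45 ± 0.25) and was kept through the stronger arm.

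Genes of stem cells, growth and translation had small negative medians, those of the cell cycle close to that of all genes. Of 10 kept genes of stem and progenitor cells (12 on the array) 6 were negative, with a median of −0.20 that was −0.084 without the 20% CR pool. Without overlap, 5 of the 10 were lower and 1 higher, where 16.3% of all genes were lower and 11.6% higher. *Slc12a2*, an ion cotransporter of the crypts, had signals of 1172.3, 1212.5, 940.1 and 1050.2 (−0.26 ± 0.13), and the stem cell regulator *Lrig1* had 122.0, 128.4, 90.6 and 113.9 (−0.30 ± 0.19). *Cd44*, an adhesion receptor of crypt cells, had 178.3, 193.6, 150.4 and 155.3 (−0.28 ± 0.16) and at its other gene probe a difference of −0.10. The 5 and 10% CR arrays were close to each other in these 3 genes. Other members went the other way and are named after their values were seen. The stem cell factor *Ascl2* had 64.0, 61.0, 70.8 and 76.5, higher without overlap (0.24 ± 0.22). *Hopx* (0.13) and *Axin2* (0.12) were positive with overlapping arms.

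Of 42 kept genes of DNA replication and the cell cycle (48 on the array) 28 were negative, with 10 lower and 2 higher without overlap (23.8% and 4.76%, against 16.3% and 11.6% of all genes). The median was −0.05 against −0.02 over all genes, −0.012 after median centring and −0.003 without the 20% CR pool. *Pold1*, the catalytic subunit of a replicative polymerase, had signals of 92.8, 109.2, 59.2 and 76.4 (−0.58 ± 0.22), and the helicase subunit *Mcm2* had 122.4, 144.0, 94.6 and 107.0 (−0.40 ± 0.19). Both were lowest at 20% CR. All 39 translation factors and aminoacyl-tRNA synthetases were kept, 28 negative, with 9 lower and 1 higher without overlap (23.1% and 2.56%) and a median of −0.08, or −0.035 after median centring. *Tars1*, which charges threonine tRNA, had 267.4, 362.9, 216.9 and 222.2 (−0.50 ± 0.18), and the initiation factor subunit *Eif3b* had 443.2, 435.0, 356.3 and 359.1, nearly equal within each arm (−0.30 ± 0.14).

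Clock genes went both ways. The Rev-erb repressors are driven by the core activators through E-boxes, DNA sites of the letters CACGTG, and they shut those activators down in turn. *Nr1d1*, with the signals given above, differed by −1.19 ± 0.31, but it was kept only through the milder arm, where it was high, and so had to differ. Its paralog *Nr1d2* had 186.3, 170.7, 138.4 and 113.0 (−0.51 ± 0.18), with −0.48 at its other gene probe. *Dbp*, an output factor of the clock, had 136.2, 158.1, 97.8 and 48.6 (−1.09 ± 0.31). *Nr1d2* and *Dbp* were lower at 30% than at 20% CR and did not overlap between the arms. In *Nr1d2* and *Dbp* the stronger arm lay nearer to the control array, at 59.8 and 21.9, and in *Nr1d1* it lay further from it, the control being at 59.1.

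*Per2*, a core repressor, had signals of 203.6, 190.5, 231.6 and 204.6, higher without overlap by a narrow gap (0.14 ± 0.16). *Per1* and the deubiquitinase *Usp2*, named here after their values were seen, had 62.6, 110.4, 116.9 and 60.9, and 110.1, 129.4, 200.8 and 111.9. Both were high at 20% CR and back near the 5% CR level at 30%. The core activators *Bmal1* and *Clock*, also named after their values were seen, were highest at 30% CR, with overlapping arms. *Bmal1* had 50.1, 47.0, 41.9 and 86.2 (0.31 ± 0.35) and *Clock* 91.6, 81.1, 86.3 and 118.8 (0.23 ± 0.22). Of 12 genes on the array listed for the repressor and output side of the clock, 7 were kept. Without overlap, 1 was higher and 3 lower, *Nr1d1* among the latter (14.3% and 42.9%, against 11.6% and 16.3% of all genes). The median of 0.02 was −0.45 without the 20% and −0.39 without the 5% CR pool. The hour of dissection was not tested.

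The stretch before one of the 2 RefSeq starts of *Nr1d1* is shown because it holds an E-box. CACGTG, which reads the same on both strands, was found within 250 bases before a start in 2 of the 7 kept clock genes, *Nr1d1* and *Bhlhe40*. Counted by promoter, these were 2 of 8 (25.0%), against 5.59% of all promoters. It was not in the window before *Dbp*, which says only that these letters are not in that window. The 200 bases lie at chr10:84229455-84229654 on the minus strand (RefSeq, build GRCr8), with the E-box in capitals.
Nr1d1: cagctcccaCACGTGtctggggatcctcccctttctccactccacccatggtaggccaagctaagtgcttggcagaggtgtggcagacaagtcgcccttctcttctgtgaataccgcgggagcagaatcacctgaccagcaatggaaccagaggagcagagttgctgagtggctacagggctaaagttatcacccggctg

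Glucocorticoid and FoxO response genes included some of the largest differences beside many with none. Of 27 on the array 23 were kept, 14 positive and 9 negative, with a median of 0.04. Without overlap, 5 were higher and 1 lower (21.7% and 4.35%, against 11.6% and 16.3% of all genes). Among the 5 higher, *Hsd11b1* had 40.3, 46.8, 61.4 and 57.8 and is named after its values were seen. It was kept only through the stronger arm, where it was high, and so had to differ. *Sgk1*, a kinase that glucocorticoids induce, had signals of 287.1, 285.9, 521.8 and 307.4 (0.48 ± 0.23), so the 20% CR array alone was high. *Hsd11b2*, the enzyme that inactivates glucocorticoids, had 85.3, 88.8, 41.0 and 59.1 (−0.82 ± 0.25). Both stronger arrays lay below both milder ones, and the control array was at 41.1. *Sgk1*, *Hsd11b2*, *Fkbp5* and *Angptl4* are 4 of the 6 that did not overlap. The lysosome and autophagy list was mixed, with 7 higher and 8 lower without overlap of 40 kept (42 on the array) and a median of −0.03. Beside *Ctss* and *Map1lc3a*, the ceramidase *Asah1* had 115.4, 114.0, 133.6 and 140.1 (0.25 ± 0.17), but −0.07 at its other gene probe, and *Gusb*, a glucuronidase, had 130.6, 126.4, 110.0 and 94.6 (−0.33 ± 0.18).

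Most genes that the study names for this tissue differed little between stronger and milder restriction. The alkaline phosphatase *Akp3* had signals of 415.1, 244.1, 412.2 and 147.4 (−0.37 ± 0.43), which alternates from level to level. The fatty acid transporter *Cd36* had 194.4, 161.7, 130.3 and 201.0 (−0.13 ± 0.23), and the chloride channel regulator *Clca4* had 567.1, 328.0, 462.2 and 400.1. The arms overlapped in these 3. The glutathione transferase *Gsta1* had 86.7, 98.8, 78.6 and 127.6 (0.11 ± 0.26), *Nampt*, of NAD salvage, 97.6, 111.6, 97.5 and 146.5 (0.20 ± 0.23), and *Sult1a1* 138.4, 129.3, 128.8 and 186.7 (0.21 ± 0.21), all 3 highest at 30% CR and overlapping through the 20% CR array. *Akr1c14*, a hydroxysteroid dehydrogenase, had 390.0, 345.5, 460.8 and 413.2, higher without overlap (0.25 ± 0.15), and *Glul*, which makes glutamine, had 253.8, 240.0, 222.9 and 200.9, lower without overlap (−0.22 ± 0.15), with −0.30 and 0.01 at its other gene probes. *Nmu* (−0.20), *Fads1* (−0.11), *Hspa1a* (0.08), *Abcg5* (0.10) and *Ephx1* (0.17) had smaller differences and overlapping arms. *Hspa1a*, *Cd36* and *Akr1c14* were read here at other gene probes than those the study lists. At the study's gene probe of *Akr1c14* the difference was 0.31. *Hsp90aa1* and the gene probe shared by *Cyp2b1* and *Cyp2b2*, which the study also names, are not described here.

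The control array, which took no part in the choice, lay on different sides of these gene probes. Of the 38 that were higher by at least 0.5 without overlap, the control signal lay at or below the milder arm's higher array in 19, between the arms in 10 and at or above the stronger arm's lower array in 9. Of the 93 that were lower, the corresponding numbers were 35, 26 and 32. A gene probe that separated stronger from milder restriction was thus not always one on which the stronger arm stood further from the unrestricted pool, as *Cdkn2b* and *Dbp* show.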

How the data were processed

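Signals of 5 arrays were analysed, 4 of them in the comparison. Per the labels, the authors prepared RNA with a plant kit, labelled it with biotin and computed MAS5 signals, and the deposited values are intensity on a linear scale. The trimmed mean without the lowest and highest 2% was 132 on every array, and medians were 44.9 to 49.0, so differences in total RNA per pool are removed. The target of this scaling is not given in the sources used, and the authors' change calls were not used here. MAS5 takes the mismatch signal off, which makes ratios of dim gene probes noisy.

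Signals were floored at 0.1 and taken to log2. Names came from the array annotation: 12783 gene probes carry 1 gene name, 312 several and 2771 none that could be used, and 57 array controls were left out. The arms were compared in R 4.3.3 by limma 3.58.1, two-sided, through lmFit and eBayes, whose prior followed the mean signal, at 2 residual degrees of freedom. P-values were adjusted by Benjamini-Hochberg over all 7924 kept gene probes and called at 0.05. The spread within an arm includes the difference between its 2 levels, and p-values measure only the spread between these pools. Tested on simulated data with 200 changed of 7924 gene probes, a log2 change of 1 was recovered for 0% (0 false calls), of 2 for 81.5% (4) and of 3 for 95.5% (4). In lists, the brightest gene probe by mean signal stood for each gene.

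Named genes were the 12 highest and 12 lowest without overlap at 50 or more on all 4 arrays. Added were 5 and 5 above 50 in 1 arm only and 5 and 5 with the smallest p. Up to 4 members of each list without overlap and most genes that the study names for this tissue completed them. Some members of the lists described were not printed. Lists were drawn from textbook knowledge of the gut. The members, lists and rules were chosen with earlier results of these data known. Quantile normalization and median centring were tried, as were an added constant of 32, other filters, other size thresholds, other variance priors, a linear trend over the percent, the mean of a gene's probes and each pool left out in turn. Promoters are RefSeq's (GRCr8, 250 bases before the start).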

Additional observations from a re-analysis of the deposited data

How the results depend on the processing

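Of 117 named gene probes, 106 have arms that do not overlap, and leaving out a pool cannot change their sign, so that agreement is fixed by how they were chosen. Of the 11 whose arms overlap, 10 changed sign under some alternative. With each pool left out in turn, *Akp3* ranged from −1.11 to 0.37 (0.01 for the 5% CR pool), *Nmu* from −0.54 to 0.14, *Cd36* from −0.44 to 0.18 (0.00 for the 5% CR pool), *Fads1* from −0.34 to 0.13, *Clca4* from −0.40 to 0.39 (0.10 for the 30% CR pool) and *Hspa1a* from −0.04 to 0.19. The ranges were −0.34 to 0.53 for *Abcg5*, −0.24 to 0.46 for *Gsta1*, −0.10 to 0.49 for *Nampt* and −0.05 to 0.48 for *Sult1a1*. The linear trend gave 0.01 for *Cd36*, 0.04 for *Fads1* and −0.14 for *Abcg5*, and median centring 0.04 for *Clca4*. The cause was not tested.

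The count of limma calls was 0 in each direction under every alternative but 1. With each pool left out in turn it ranged from 0 to 4 higher and from 0 to 2 lower, all without the 30% CR pool, where the stronger arm is 1 array and *Cyp3a9* (0.85) and *Krt20* (0.82) passed. Gene probes past 0.5 without overlap numbered 61 upward under quantile normalization and 67 under median centring. They were 9 higher and 21 lower with an added constant of 32, 953 and 989 with no filter, 20 and 42 with at least 50 on all 4 arrays, 0 and 6 at a size of 1, and 229 and 409 at 0.3. With each pool left out they ranged from 85 to 195 higher and from 138 to 540 lower, since 3 arrays overlap less easily than 4.

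List medians moved by less than the spread within the arms in 262 of 300 cases and had the opposite sign in 20. With each pool left out in turn they ranged from −0.449 to 0.234 for the clock genes, −0.166 to 0.545 for brush border peptidases, −0.004 to 0.413 for brush border structure, −0.041 to 0.331 for sugar genes, −0.058 to 0.305 for amino acid transport and −0.043 to 0.316 for fat absorption. They ranged from 0.069 to 0.202 for conjugating enzymes, −0.035 to 0.249 for mucins, −0.382 to −0.147 for lymphocytes, −0.383 to −0.009 for smooth muscle, −0.358 to −0.160 for the matrix, −0.419 to −0.185 for nerves and −0.244 to −0.084 for stem cells. For the cell cycle the range was −0.079 to −0.003, for fatty acid oxidation 0.010 to 0.111, for cholesterol synthesis 0.095 to 0.297, for the tricarboxylic acid cycle 0.037 to 0.151, for the respiratory chain 0.011 to 0.146, for translation −0.093 to −0.052 and for lysosomes −0.079 to −0.019. Quantile normalization gave 0.021 for the tricarboxylic acid cycle, 0.015 for the respiratory chain and −0.090 for translation. Median centring gave 0.055 for antigen presentation, −0.012 for the cell cycle, −0.035 for translation and 0.008 for lysosomes. With no filter the P450 list was at −0.014 and stem cells at −0.085, and with the added constant translation was at −0.072. The linear trend gave 0.099 for conjugating enzymes, −0.120 for lymphocytes, −0.084 for stem cells, −0.019 for the cell cycle, 0.040 for the tricarboxylic acid cycle and −0.066 for translation.

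No paired analysis was possible because each pool received a single diet. With 4 arrays, a log2 change of 1 was recovered for 0% of simulated gene probes, so the count of 0 calls sets no bound on changes of that size. Dim signals limit ratios further: in 53 and 66 gene probes one arm alone reached 50 on both arrays.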
